A study of Mus musculus with 36 samples.

Results

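The fatty acid binding protein (Fabp) family was described in the liver, the white fat (WAT, white adipose tissue) and the brown fat (BAT, brown adipose tissue) of mice given amino acids or water. The members were the genes Fabp1 to Fabp7, and every probe set whose symbol in the platform's annotation was exactly one of these 7 was taken, whatever its values. This gave 13 of the 45037 probe sets tested: 4 for Fabp4, 2 each for Fabp1, Fabp3 and Fabp5, and 1 each for Fabp2, Fabp6 and Fabp7. The study used male ddY mice, an outbred stock, 5 weeks old, and asked how the oral mixtures act on the transcriptomes of the 3 tissues. In the CAAM group, 5 mice (numbers 2, 4, 5, 6 and 7) received a 1.8% casein amino acid mixture, whose amino acid composition is that of casein, by feeding tube once a day, 5 times. In the DW group, 7 mice (numbers 1 to 7) received water in the same way, and all mice, without food since that morning, were killed 4 h after the last dose. Each of the 12 mice gave 1 array of each tissue, 36 arrays in all. Equal numbers in the CAAM and DW groups are different mice, the depot of the WAT is not given in the sources used here, and the study removed some further CAAM mice for an abnormal liver. Arrays of the study's other mixture were not analysed here.

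Fatty acid binding proteins are small proteins of the cytosol that carry long-chain fatty acids and other lipids from the membrane to the mitochondria, the peroxisomes, the endoplasmic reticulum and the nucleus. Each member is known by the tissue where it is abundant: Fabp1 in liver, Fabp2 in the intestine, Fabp3 in heart and muscle, Fabp4 in adipocytes and macrophages, Fabp5 in skin and many other cells, Fabp6 in the ileum, where it carries bile acids, and Fabp7 in the brain. Several of them deliver ligands to the nuclear receptors of the PPAR family, and Fabp1 and Fabp4 are themselves PPAR target genes. Fabp4 and Fabp5 lie in 1 cluster on mouse chromosome 3 together with their relatives Pmp2, Fabp9 and Fabp12, in the order Fabp5, Pmp2, Fabp9, Fabp4, Fabp12 of the RefSeq genes on GRCm38.p6.

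The values are scores of the distribution free weighted (DFW) method, 1 per probe set and array. The level of a score is on a log2-like scale, whereas the method shrinks the deviations between the arrays of a tissue, to an extent that differs by probe set, so that differences between groups are in score units only, are no log2 fold changes and cannot be turned into folds. The median SD within groups over all probe sets was 1.08e-05 in liver, 1.42e-05 in WAT and 7.38e-06 in BAT, and the array medians were 6.807 in liver, 6.913 to 6.919 in WAT and 6.780 to 6.782 in BAT. Differences are given in score units with the standard error (SE), or divided by the SD within groups (the standardised difference). Albumin scored 14.997 in liver (6.98 in WAT, 6.54 in BAT), leptin 11.3 in WAT (6.43 in liver, 7.34 in BAT) and Ucp1 14.2 in BAT (6.27 in liver, 6.44 in WAT), each highest in the tissue that the label names. Levels of different probe sets are not set against each other, and fewer cells of a type cannot be told apart from less RNA per cell in these tissue samples.

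Across tissues the family fell into a liver set, an adipose set, a BAT gene and a gene near the floor. Fabp1, the most abundant fatty acid carrier of hepatocytes, had mean scores of 14.8 in liver, 6.09 in BAT and 5.96 in WAT by probe set 1417556_at. In DW mice the difference of liver minus WAT was 8.87 units (SD over 7 mice 5.67e-06), ranked 1 of all 45037 probe sets, and that of liver minus BAT was 8.75 units, ranked 4 among the probe sets higher in liver. The second Fabp1 probe set, 1448764_a_at, scored 14.3 in liver and 5.64 in both fats. Fabp2, the intestinal member, scored 11.5 in liver, 5.92 in BAT and 6.13 in WAT, a difference of 5.55 units over BAT and 5.35 units over WAT. Of 7 measured markers of intestinal epithelium, 2 lay above all array medians in liver, against 9 of 9 hepatocyte markers. Fabp7, the brain member, was also highest in liver, at 7.91 against 6.52 in WAT and 6.37 in BAT. Of 5 markers of glia and Schwann cells, 3 were above all array medians in liver, 2 in WAT and 4 in BAT.

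Fabp4 and Fabp5 had the opposite order, with liver lowest in all 6 of their probe sets and WAT the higher of the fats, by a margin that for Fabp4 by 1417023_a_at is too small to be read. Fabp4 by 1417023_a_at scored 8.56 in liver, 14.5 in BAT and 14.7 in WAT, so that liver minus WAT was -6.10 units. The other Fabp4 probe sets differed between liver and WAT by -5.83 (1424155_at), -4.96 (1425809_at) and -5.59 units (1451263_a_at). Fabp5, the epidermal member, differed less: 1416021_a_at scored 11.3 in liver, 12.7 in BAT and 13.1 in WAT, and 1416022_at scored 9.54 in liver, 11.3 in BAT and 12.2 in WAT in DW mice. Fabp5 was thus above the array medians in all 3 tissues, as were 3 of the 4 Fabp4 probe sets. The muscle and heart member Fabp3 was highest in BAT. Its probe set 1416023_at had a DW mean of 10.4 in BAT, against 6.48 in liver and 6.94 in WAT, and BAT minus WAT, at 3.43 units, ranked 24 among the probe sets higher in BAT. The other Fabp3 probe set, 1444844_at, kept this order at a smaller distance, 7.50 in BAT against 7.13 in WAT and 6.66 in liver. Fabp6, the bile acid carrier, scored 5.96 in liver, 5.93 in BAT and 6.17 in WAT, below every array median.

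**Figure D1:**
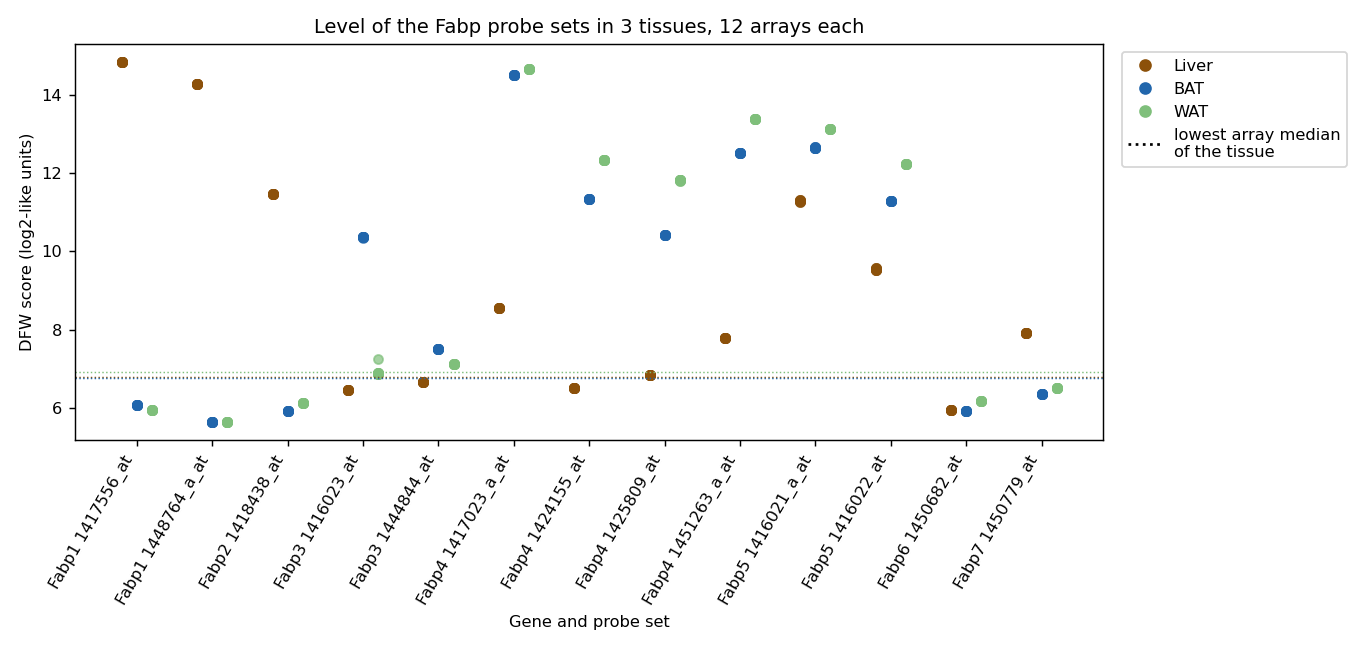
Score (y axis, log2-like units) of the 13 Fabp probe sets (x axis) in liver, BAT and WAT, with 12 arrays per tissue that mostly overlap, and the lowest array median of each tissue as a dotted line. Fabp1, Fabp2 and Fabp7 are highest in liver, Fabp4 and Fabp5 in WAT and Fabp3 in BAT, and 1 WAT array, DW mouse 2, stands off in Fabp3.

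In DW mice, 4 of 13 member probe sets were over 1 unit higher and 6 over 1 unit lower in liver than in WAT, whereas 3.96% and 8.35% of all probe sets were so. For liver minus BAT these counts were 4 and 7 of 13, beside 5.02% and 4.6% of all. For BAT minus WAT they were 1 and 2 of 13, beside 1.77% and 4.91% of all. The CAAM mice gave the same tissue order in every member probe set, with liver minus WAT of 8.87 units for Fabp1 and -6.10 units for Fabp4. These differences are described and not tested, because the values look as if the tissues were quantified apart. An offset from that processing cannot be told apart from a difference between tissues. Over all probe sets the range between the tissue means was at least 0.000906 units (median 0.405), against the far smaller SDs within a tissue given above. A paired limma fit passed 99.8% of all probe sets for liver minus WAT, 99.9% for liver minus BAT and 99.7% for BAT minus WAT, so that passing it separates no gene from the rest. Neighbours in the order are therefore judged by the median absolute difference of all probe sets, 0.218 units for BAT minus WAT. Below it lay both probe sets of Fabp1 (0.12 and -0.0066 units), Fabp2 (-0.20), the brightest probe set of Fabp4 (-0.15) and Fabp7 (-0.15), for which the order of the 2 fats is not read.

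The bases just before the start of the 2 liver members and of the BAT member are shown because these 3 genes carried the widest tissue contrasts among the genes with a promoter in the RefSeq table used here (GRCm38.p6). They are the 250 bases upstream of the start, 5′ to 3′ on the plus strand, at chr6:71199629-71199878 for Fabp1, chr3:122894822-122895071 for Fabp2 and chr4:130308488-130308737 for Fabp3. Capitals mark TATAAA (the TATA box), AGGTCA (the core hexamer of nuclear receptor sites), GTTAAT (the core of sites of HNF1, a hepatocyte factor) and GGGCGG (the GC box) on either strand.
Fabp1: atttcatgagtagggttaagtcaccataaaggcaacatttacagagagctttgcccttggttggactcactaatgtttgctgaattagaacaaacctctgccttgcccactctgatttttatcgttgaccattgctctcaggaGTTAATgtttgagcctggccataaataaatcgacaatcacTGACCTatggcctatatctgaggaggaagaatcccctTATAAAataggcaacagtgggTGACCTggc
Fabp2: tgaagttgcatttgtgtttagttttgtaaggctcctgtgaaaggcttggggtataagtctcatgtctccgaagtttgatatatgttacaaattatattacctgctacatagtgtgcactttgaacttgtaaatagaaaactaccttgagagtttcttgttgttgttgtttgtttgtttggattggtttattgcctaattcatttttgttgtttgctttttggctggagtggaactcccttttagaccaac
Fabp3: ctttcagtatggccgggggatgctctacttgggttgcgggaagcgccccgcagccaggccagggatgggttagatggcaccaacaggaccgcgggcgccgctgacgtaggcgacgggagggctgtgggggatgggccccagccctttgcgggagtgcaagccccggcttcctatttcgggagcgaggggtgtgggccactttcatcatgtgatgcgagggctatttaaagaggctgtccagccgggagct
Fabp1 held a TATAAA that began 30 bases before the start, a GTTAAT 107 bases before it and 2 copies of AGGTCA on the minus strand, with first bases 67 and 9 before it. No marked letters occur in the windows of Fabp2 and Fabp3. Of 32851 windows of this length in the table, 12.4% held TATAAA, 14.02% AGGTCA, 6.43% GTTAAT and 32.7% GGGCGG. The full element of PPAR, 2 copies of AGGTCA in a row with 1 free base between them, searched on both strands, occurred in 0.0335% of windows and in none of those of Fabp1, Fabp2, Fabp3, Fabp6 and Fabp7, the members present in the table. CCAAT, in 33.8% of windows, occurred in Fabp2 and Fabp7, and TTGCGCAA, the core of C/EBP sites, in 0.164% of windows and in none of the 5. None of the matches named overlapped another. These matches describe letters only.

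In the liver, Fabp5, 2 of the 4 Fabp4 probe sets and Fabp7 had higher scores in CAAM mice and were called by rank products, the test of the study, which ranks the differences of all pairs of a CAAM and a DW array and calls a probe set where the estimated false positive share is below 0.05. These were 5 of the 13 member probe sets, all higher, while 1.64% of all probe sets were called higher and 1.19% lower. With quantile normalization 419 probe sets were called higher and 620 lower, against 740 and 535 with the scores as deposited, and 3 of 13 members. Calls by this test came almost only from probe sets with a large spread: 99.6% of those called in liver were among the 4504 with the largest SD. That SD is taken over the 12 arrays of both groups, so it holds the group difference too. Of these 4504, 16.4% were called higher, and 5 of the 6 members among them. Ranked by differences over their SD, no member was called in any tissue. No member had groups that did not overlap, beside 0.442% of all probe sets in liver, 0.222% in WAT and 0.329% in BAT. By limma, which weighs each difference against its spread, 0% of all probe sets had an adjusted p under 0.05 in any tissue, no member among them. The lowest adjusted p of a member in liver was 0.686, and 2 of 13 member probe sets, beside 6.77% of all, had an unadjusted p under 0.05.

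Fabp5 had the largest standardised differences of the members in liver, and they did not pass by limma. By 1416021_a_at the scores of CAAM mice 2, 4, 5, 6 and 7 lay 0.0153, 0.0155, 0.0311, 0.00723 and 0.0248 above the DW mean. The DW mice ran from -0.0161 (mouse 6) over -0.000731 (mouse 7, the median) to 0.0234 (mouse 2). All CAAM mice were above the DW median and above 6 of the 7 DW mice, and DW mouse 2 alone lay within the CAAM range. The mean score was 11.297 ± 0.00927 in CAAM mice and 11.278 ± 0.0131 in DW mice (SD, n = 5 and 7), a difference of 0.0188 ± 0.00665 (SE) with an adjusted p of 0.686 by limma and an exact permutation p of 0.0253 (two-sided, 792 divisions of the mice, 0.691 after adjustment over all probe sets). A limma fit of the 36 arrays of all tissues together, in which the tissues share the spread, gave adjusted p values of 0.0124 for this probe set and 0.0181 for 1416022_at. This fit counts the arrays of a mouse as independent and uses 1 spread per probe set. The SD of 1416021_a_at in DW mice was 0.0131 in liver, 0.000158 in WAT and 0.000726 in BAT. The error in liver is therefore understated, and these 2 p values are not read as a result. The second Fabp5 probe set, 1416022_at, gave the same picture, with a standardised difference of 1.55 beside 1.601 for the other. Its scores in CAAM mice 2, 4, 5, 6 and 7 lay 0.0236, 0.0229, 0.0532, 0.00868 and 0.0410 above the DW mean, and those of DW mice ran from -0.0211 over -0.00418 to 0.0417. Without CAAM mouse 5, its highest value, the difference of 1416021_a_at was 0.0157 and that of 1416022_at 0.0241, and both stayed called by rank products with every mouse left out in turn.

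Fabp4, the adipocyte and macrophage member, was far lower in liver than in fat, and 2 of its 4 probe sets were called higher there. By 1451263_a_at, CAAM mice 2, 4, 5, 6 and 7 scored 0.000574, 0.000331, 0.00115, 0.000278 and -2.28e-05 relative to the DW mean, while DW mice ran from -0.000446 (mouse 3) over -7.21e-06 (mouse 1) to 0.000533 (mouse 2). The groups overlapped, with 4 of 5 CAAM mice above the DW median and mouse 5 highest. The difference was 0.000461 ± 0.000213 (SE), with an adjusted p of 0.740 by limma. Probe set 1417023_a_at had all 5 CAAM mice above the DW median, a count that 6.37% of all probe sets reached, and a difference of 0.000455 ± 0.000299. Its estimated share of false positives, 0.0499, was just under the threshold, and that of 1451263_a_at was 0.0351. Without CAAM mouse 5 they were 0.243 and 0.172, and of 12 mice left out in turn, 10 ended the call of 1417023_a_at and 7 that of 1451263_a_at. The remaining Fabp4 probe sets, 1424155_at and 1425809_at, had standardised differences of 0.63 and 0.55 and were not called.

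Fabp7 was named in the study's own text for its response in liver, so its call is not independent evidence. CAAM mice 2, 4, 5, 6 and 7 scored 0.00220, 0.00211, 0.00631, -0.00244 and 0.000508 relative to the DW mean, against a DW range of -0.00214 (mouse 1) over -0.000241 (mouse 5) to 0.00562 (mouse 3). The groups overlapped over nearly the whole range, as CAAM mouse 6 was the lowest and CAAM mouse 5 the highest of the 12 mice. The difference was 0.00174 ± 0.00163 (SE), with an adjusted p of 0.889 by limma. Without CAAM mouse 5 it was 0.000594, and the estimated share of false positives was 0.0863 in place of 0.00934.

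**Figure D2:**
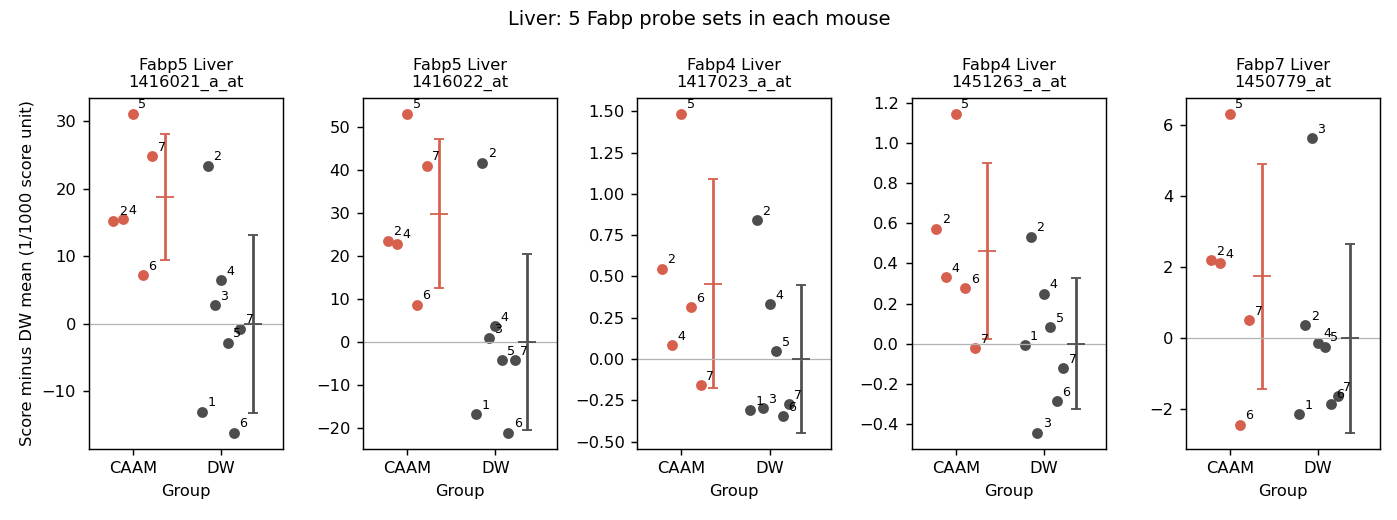
Score minus the DW mean (y axis, thousandths of a score unit) in the liver of each mouse, CAAM left and DW right, with the mouse number beside each point and the group mean ± SD as a bar. In Fabp5 all CAAM mice exceed 6 of 7 DW mice, while in Fabp4 and Fabp7 the groups overlap and CAAM mouse 5 is highest.

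Fabp1, the main carrier of the liver, had a difference of 7.34e-08 ± 8.19e-07 (SE) in liver by 1417556_at, with 4 of 5 CAAM mice above the DW median. Its SD was smaller than that of all but 0.0422% of the probe sets, so that this score hardly varied between arrays. By 1448764_a_at the difference was 7.59e-06 ± 2.39e-05, and its sign turned under centring, array weights and the replicate block. Fabp2 had a standardised difference of 1.10 in liver, 0.000194 ± 0.000100 in score units, and was not called (adjusted p = 0.764 by limma). Fabp3 and Fabp6 were below the array medians in liver and were not called, although all 5 CAAM mice were below the DW median in Fabp6, as in 9.76% of all probe sets. In all, 11 of the 13 member probe sets had a higher mean in CAAM livers, with a median standardised difference of 0.604, whereas 44.5% of all probe sets had a higher mean and their median was -0.0885.

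Markers of macrophages were described beside the liver values, which they matched in some mice and not in others. All 14 macrophage markers had a higher mean in CAAM livers, 12 of them called higher by rank products, and all 14 lay above every array median. Their list score, which averages the markers after each is centred and divided by its SD, ran from -0.251 to 2.19 in CAAM mice and from -1.38 to 0.470 in DW mice. CAAM mouse 5 had the highest score, as it did in Fabp5, the 2 called Fabp4 probe sets and Fabp7, and DW mouse 6 the lowest, as in Fabp5. Other mice matched in part or not at all. DW mouse 3 had the highest list score of the DW mice (0.470). It also had their highest Fabp7 score (0.00562 above the DW mean), but their lowest Fabp4 score by 1451263_a_at. CAAM mouse 2 had the lowest list score of its group (-0.251) and was above the DW median in Fabp5. DW mouse 2, the highest DW mouse in Fabp5, had a list score of -0.183. Of 10 endothelial markers, 9 had a higher mean, with list scores of 0.0480 to 0.644 in CAAM mice and -1.01 to 0.787 in DW mice, DW mouse 2 highest, the mouse with the highest DW score of Fabp5. Fabp4 is also expressed by macrophages and by the endothelium of small vessels. Adipocyte markers had a lower mean for 3 of 5 genes, and 2 of 5 were above the array medians in liver. The part of these cells in the result was not tested.

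In BAT, Fabp3 and 2 Fabp4 probe sets had lower scores in CAAM mice and were called by rank products, 3 of 13 members beside 2.06% of all probe sets. No member was called higher, beside 1.19% of all. Of the 4504 probe sets that varied most in BAT, 20.2% were called lower, and 3 of the 6 members among them. By limma 2 of 13 members, beside 6.41% of all probe sets, had an unadjusted p under 0.05. Of the called members, Fabp3 had the largest standardised difference (-1.75). By 1416023_at, CAAM mice 2, 4, 5, 6 and 7 scored -0.0139, -0.00964, -0.00807, -0.00891 and -0.00223 relative to the DW mean, and DW mice ran from -0.0111 (mouse 2) over 0.00181 (mouse 4, the median) to 0.00489 (mouse 6). All CAAM mice were below 6 of the 7 DW mice, and DW mouse 2 lay among them. The mean score was 10.361 ± 0.00419 in CAAM mice and 10.370 ± 0.00530 in DW mice (SD, n = 5 and 7), a difference of -0.00856 ± 0.00278 (SE), with an adjusted p of 0.691 by limma and an exact permutation p of 0.0227 (two-sided, 0.741 after adjustment). The difference ranged from -0.0104 to -0.00721 with each mouse left out in turn. The second Fabp3 probe set, 1444844_at, was also lower in all 5 CAAM mice than the DW median, which held for 6.61% of all probe sets, at -7.16e-05 ± 5.10e-05, and was not called.

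In the Fabp4 probe sets of BAT, single mice set much of the difference. By 1424155_at, CAAM mice 2, 4, 5, 6 and 7 scored 0.00170, 0.00131, -0.000873, -0.00386 and -0.00689 relative to the DW mean, and DW mice ran from -0.00593 (mouse 6) over 0.00109 (mouse 3) to 0.00276 (mouse 7). By 1425809_at the CAAM mice scored 0.000372, 0.00410, 0.000114, -0.00110 and -0.0113, and the DW mice ran from -0.00958 (mouse 6) over 0.00210 (mouse 4) to 0.00349 (mouse 5). CAAM mouse 7 and DW mouse 6 were the lowest of their groups in both probe sets, and the groups overlapped throughout. The differences were -0.00172 ± 0.00194 and -0.00157 ± 0.00293 (SE), with adjusted p values of 0.949 and 0.973 by limma. Without CAAM mouse 7 they were -0.000432 and 0.000872, so that 1425809_at changed sign and lost its call (0.110), while 1424155_at kept its call (0.0183). With the replicate block 1425809_at was called higher in place of lower (0.0276 for higher, 0.298 for lower). That block pairs CAAM and DW mice of equal number, which are different mice, and leaves out DW mice 1 and 3. The turn is therefore not read as a result on Fabp4. The brightest Fabp4 probe set in BAT, 1417023_a_at, had a standardised difference of -1.08 with all 5 CAAM mice below the DW median, yet its SD was smaller than that of all but 0.0422% of the probe sets and it was not called. Fabp5 had standardised differences of 0.288 and 0.413 in BAT and was not called.

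Fabp3 is abundant in muscle, and muscle markers varied between the BAT samples. All 12 skeletal muscle markers had a lower mean in CAAM mice, all 12 were called lower by rank products (1 of them in both directions), and 11 of 12 were above every array median. Their list score ran from -0.773 to 1.53 in CAAM mice and from -0.637 to 1.93 in DW mice, with DW mice 1, 3 and 7 and CAAM mouse 2 above 0. CAAM mouse 2 had the lowest Fabp3 score of the 12 mice beside a high muscle score. Without these 4 arrays, a choice made after the data were seen, the Fabp3 difference was -0.00666 and stayed called by rank products, and neither Fabp4 probe set was called (0.0856 for 1424155_at and 0.208 for 1425809_at). The arrays kept had muscle scores of -0.773 to -0.581 in CAAM mice and -0.637 to -0.447 in DW mice. The part of muscle in these values was not tested. Fabp6 in BAT had the lowest unadjusted p of all members (8.50e-06 ± 2.45e-06, adjusted p = 0.671 by limma, exact permutation p = 0.00758), at a level below every array median. All 5 CAAM mice were above the DW median in Fabp6, and so they were in Fabp2 and in Fabp1 by 1448764_a_at, both also dim, beside 6.93% of all probe sets.

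In WAT, 1 of 13 member probe sets was called by rank products, Fabp3 by 1416023_at, which was lower in CAAM mice (1.95% of all probe sets were called lower, 0.83% higher). This call followed 1 mouse in size. CAAM mice scored -0.0576 to -0.0497 relative to the DW mean, close to 6 of the DW mice at -0.0617 to -0.0425, while DW mouse 2 scored 0.307. The difference was -0.0539 ± 0.0600 (SE, adjusted p = 0.9999 by limma), and without DW mouse 2 it was -0.00274 ± 0.00332, still called with an estimated share of false positives of 0.0315. Epididymis markers were uneven between the same arrays: list scores ran from -0.652 to 0.158 in CAAM mice and from -0.342 to 2.14 in DW mice, with DW mice 1 and 2 highest. Of 7 measured epididymis markers, 6 were above every array median in WAT, 6 had a lower mean in CAAM mice and 7 were called lower by rank products, 1 of them in both directions. DW mouse 1, which had the highest epididymis score, had an ordinary Fabp3 score of -0.0513. Fabp9, the testis member of the family, was also highest in WAT of DW mouse 2, at 6.28 beside a mean of 6.21 in CAAM mice and 6.22 in DW mice, below the array medians. Without the 3 WAT arrays with an epididymis score above 0, Fabp3 was not called (0.0811). The part of epididymal tissue in the result was not tested. Mesothelium markers were lower in CAAM WAT for 6 of 6 genes, with list scores of -1.17 to -0.0710 in CAAM mice and -0.469 to 1.46 in DW mice.

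No other member was called in WAT, and by limma no member, beside 3.96% of all probe sets, had an unadjusted p under 0.05. In none did all CAAM mice lie above the DW median, as in 5.17% of all probe sets, or below it, as in 4.86%. Fabp4, the leading carrier of white adipocytes, had standardised differences of 0.189, -0.282, -0.413 and -0.484 in its 4 probe sets. By 1417023_a_at the difference was 2.89e-08 ± 7.79e-07, at a SD below that of all but 0.00888% of the probe sets, and its sign turned with the replicate block. Fabp5 differed by 0.000144 ± 0.000118 and 0.000229 ± 0.000208, and Fabp2, dim in WAT, by 6.63e-05 ± 3.43e-05. Over the family, 8 of 13 probe sets had a higher mean in WAT (median standardised difference 0.189, beside 0.0144 for all probe sets). In BAT 6 of 13 did (median -0.0994, beside -0.0131).

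**Figure D3:**
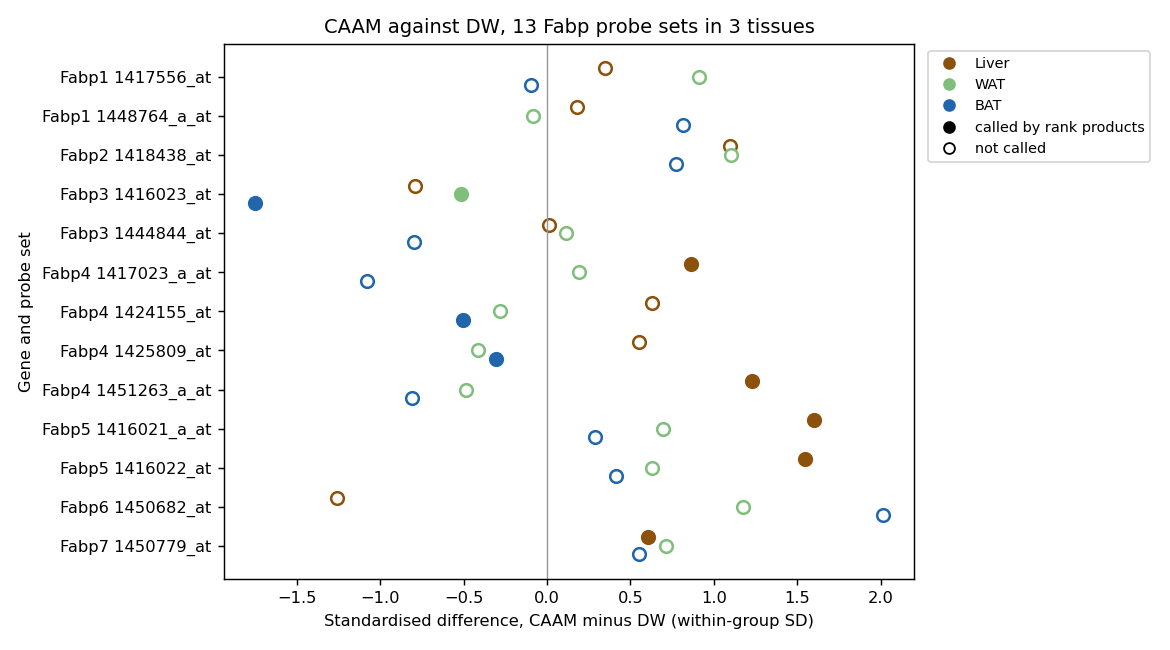
Standardised difference of CAAM minus DW (x axis, in SD within groups) for the 13 Fabp probe sets (y axis) in liver, WAT and BAT, filled where rank products made a call. In liver 5 probe sets of Fabp4, Fabp5 and Fabp7 are filled to the right of 0, in BAT 3 of Fabp3 and Fabp4 to the left, and in WAT 1 of Fabp3.

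Whether the response differed between tissues was tested by limma on differences within mice. No member passed, with a lowest adjusted p of 0.724 over the 39 tests of 13 probe sets and 3 pairs of tissues, and 0% of all probe sets did (5.38% had an unadjusted p under 0.05 in liver minus WAT, 6.19% in liver minus BAT and 5.57% in BAT minus WAT). Since no probe set passed, this test does not show that the responses were alike. Fabp5 by 1416021_a_at had a CAAM effect in liver minus WAT of 0.0186 ± 0.00671 (SE, adjusted p = 0.887) and in liver minus BAT of 0.0184 ± 0.00672 (adjusted p = 0.735). Fabp3 by 1416023_at had an effect in liver minus BAT of 0.00855 ± 0.00277 (adjusted p = 0.730). The factor that shrinks a probe set can differ between tissues, so these sizes carry that factor too.

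**Figure D4:**
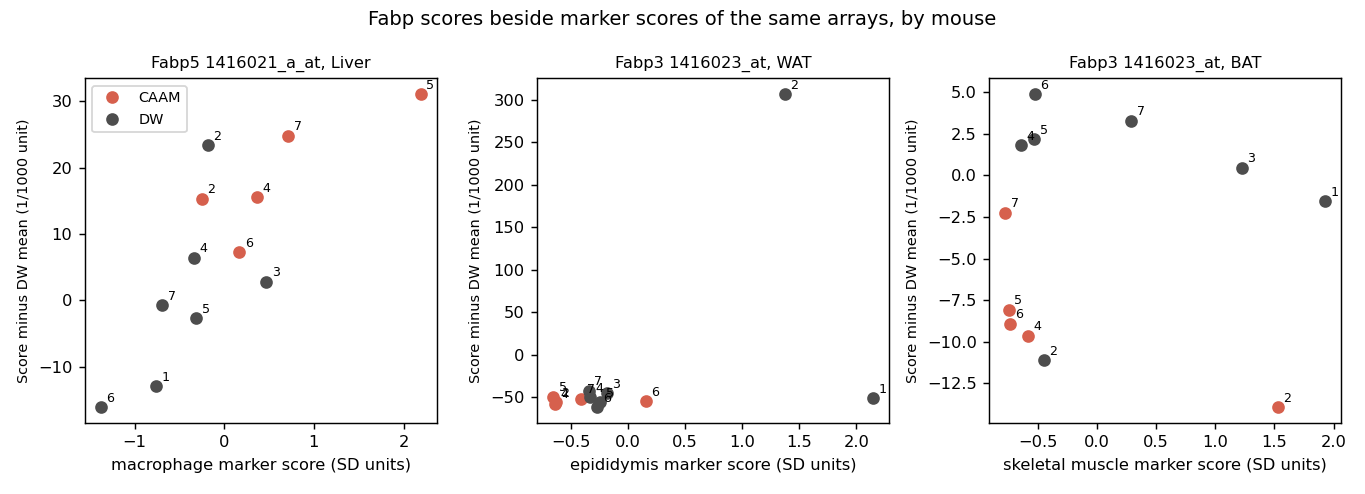
Score minus the DW mean (y axis, thousandths of a unit) of Fabp5 in liver, Fabp3 in WAT and Fabp3 in BAT against the marker score of the same array (x axis, SD units), 1 numbered point per mouse. Fabp5 and the macrophage score are both highest in CAAM mouse 5 and lowest in DW mouse 6, Fabp3 in WAT stands off in DW mouse 2 only, and Fabp3 in BAT is lowest in CAAM mouse 2, whose muscle score is high.

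Probe sets of a gene varied together in some pairs and not in others. After group means were taken off, Pearson's r over 12 arrays of a tissue was 0.96 to 0.98 between the Fabp5 probe sets in all 3 tissues. It was 0.98 in WAT and 0.92 in BAT between the Fabp4 probe sets 1424155_at and 1425809_at, and 0.95 in liver between 1417023_a_at and 1451263_a_at. The Fabp3 probe sets gave 0.62 in liver, -0.40 in WAT and 0.43 in BAT, and the Fabp1 probe sets 0.61 in liver. In liver Fabp4 by 1417023_a_at also varied with Fabp5 (r = 0.68 and 0.70). Fabp7 in liver varied against Fabp4 by 1424155_at and 1425809_at, which lie near the array medians there (r = -0.69 and -0.62). With the called Fabp4 probe sets 1417023_a_at and 1451263_a_at, the r of Fabp7 was 0.41 and 0.27, and with Fabp5 0.52 and 0.50. In WAT Fabp5 varied with Fabp2 (r = 0.81 and 0.82), which lay below every array median there. CAAM mouse 2 was the highest in Fabp2, 0.000218 above the DW mean, with CAAM mouse 6 next at 6.84e-05. Without CAAM mouse 2 the Fabp5 difference by 1416022_at in WAT was 1.83e-05, against 0.000229. These arrays share a sample, so that r describes shared variation of any source.

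The genes most like each member over the 12 arrays of its highest tissue were found among probe sets above the tissue's median. Each r is the highest of many over few arrays, and no background was computed for it. In liver Fabp7 was most like the genes of MHC class II, which presents antigens to T cells: H2-DMa (r = 0.95), H2-Aa (0.94) and H2-Ab1 (0.93). Fabp1, whose score hardly varied between arrays, was most like D8Ertd738e (0.86) and Tpd52l2 (0.86), and Fabp2 like Zbtb16 (0.90) and Dok3 (0.88). Fabp3 in BAT was most like Acad11 (0.94), an acyl-CoA dehydrogenase, and Fabp5 in WAT like Inpp5a (0.98), an inositol phosphatase. Fabp4 in WAT was most like Tmem52 (0.89) and Fabp6 like Coq10a (0.86), at scores that barely vary.

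Of the relatives that also bind lipids in the cell, Fabp9, Fabp12, Pmp2 and the retinoid binders, 7 were measured and none was called in any tissue. Those with the lowest p were Crabp2 and Fabp9 in liver (-5.39e-06 ± 3.01e-06 and 2.97e-06 ± 2.83e-06), Pmp2 and Crabp2 in WAT (8.65e-06 ± 6.03e-06 and 0.00522 ± 0.00394), and Fabp9 and Rbp2 in BAT (1.10e-05 ± 5.81e-06 and -2.05e-06 ± 1.32e-06). Among 15 measured genes of fatty acid uptake and activation, 2 were called higher in liver: Cd36, the fatty acid translocase (0.000653 ± 0.000323), and Lpl, lipoprotein lipase (0.00183 ± 0.00333). In BAT the transporter Slc27a2 was called higher (0.000809 ± 0.000787) and Got2 lower (-0.000411 ± 0.00287). Of 10 measured PPAR and adipogenic regulators, Cebpb was called higher in liver (0.00161 ± 0.000859, all 5 CAAM mice above the DW median) and in BAT (0.000398 ± 0.000248), and of the coactivators Ppargc1b was called lower in liver and Ppargc1a higher in BAT. Of 16 measured PPAR-alpha targets in liver, 5 were called higher and 4 lower, 3 of them in both directions, among them Cyp4a14, the fatty acid hydroxylase (0.333 ± 0.363), and Fgf21, the fasting hormone (0.0116 ± 0.00791). Cpt1a, the gatekeeper of mitochondrial fatty acid oxidation, was called higher in liver (0.000552 ± 0.000368) and the droplet protein Plin2 lower (-0.000284 ± 0.000594). Of the same targets in BAT, Vnn1, a pantetheinase, was called higher (0.00377 ± 0.00222) and Acot1, an acyl-CoA thioesterase, lower (-0.000559 ± 0.00233). In WAT no gene of the uptake, regulator or PPAR-alpha target lists was called, and the genes with the lowest p were Scp2 and Slc27a3 (9.05e-06 ± 3.49e-06 and -6.83e-06 ± 4.74e-06), Ppargc1a and Ppara (0.000492 ± 0.000391 and 1.87e-05 ± 2.26e-05), and Acot2 and Acaa1b (2.40e-05 ± 1.68e-05 and 0.000379 ± 0.000288). Of the lipolysis partners, G0s2, the inhibitor of adipose triglyceride lipase, and Plin5, a droplet protein, were called lower in liver (-0.0235 ± 0.0237 and -0.00123 ± 0.00243), and G0s2 was called higher in WAT (0.00263 ± 0.00179) and BAT (0.000751 ± 0.000211). None of these genes had an adjusted p under 0.05 by limma within its tissue.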

How the data were processed

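Total RNA of the 3 tissues was hybridised to Affymetrix Mouse Genome 430 2.0 arrays. The CEL files were summarised with DFW in Bioconductor by the authors, under R 2.7.2 according to the submission notes, and the deposited score table holds 45101 probe sets (scores of 5.40 to 23.0, none missing). The scores were used as they are, without 64 control probe sets. Symbols came from the platform's annotation, which gave 34945 probe sets 1 symbol, 932 several and 9160 none. The number of arrays limits the precision.

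Groups follow the sample titles, and replicates are different mice. CAAM was compared with DW in each tissue without covariates. Rank products, written in python 3.11.15 with numpy 2.4.6 and pandas 2.3.3, used the 35 pairs of a CAAM and a DW array and a null of 100 permutations within arrays (20 in alternatives). limma 3.58.1 (R 4.3.3) gave each difference, its SE and a two-sided p, which was adjusted by Benjamini-Hochberg across all tested probe sets. The exact permutation test used the 792 divisions of the 12 mice (scipy 1.17.1). These tests had been planned for log2-like values and were kept, although the deviations are shrunk. The same scripts were tested on simulated data.

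Alternatives were quantile normalization, centring of arrays, the linear scale, bright probe sets only, ranking of differences over their SD, rank sums, the replicate block, trended and robust priors, weights for arrays, a joint fit of 36 arrays, percentiles, other mice and each mouse left out. Member genes and lists were chosen with earlier results of these data known. Every member probe set is named. Of a pathway list, up to 4 genes called by rank products are named in a tissue, or with none the 2 with the lowest p, and for likeness the 3 genes with the highest r to the brightest probe set of the member. Lists use the brightest probe set of a gene in the tissue. Figures were drawn with matplotlib 3.10.9.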

Additional observations from a re-analysis of the deposited data

Results flagged for a closer look

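Of 78 groups of 1 probe set in 1 tissue and treatment, 10 held a mouse far from the others of its group, where chance alone gives about 1 in 20. The gap to the nearest mouse is given as a share of the group's range. In Fabp3 by 1416023_at, DW mouse 2 was far above the others in WAT (0.948) and far below them in BAT (0.598), and CAAM mouse 4 was lowest in liver (0.747). In liver, DW mouse 2 was highest in Fabp5 by 1416022_at (0.604), DW mouse 3 was highest in Fabp7 (0.677) and lowest in Fabp4 by 1424155_at (0.616). In WAT, CAAM mouse 7 was lowest in Fabp4 by 1451263_a_at (0.729), DW mouse 5 lowest in Fabp6 (0.575) and DW mouse 1 highest in Fabp1 by 1448764_a_at (0.662). In BAT, DW mouse 7 was highest in Fabp1 by 1448764_a_at (0.5997). The gaps of Fabp1, Fabp6, both Fabp4 probe sets and Fabp3 in liver were 3.23e-05 score units or less, and that of Fabp3 in WAT was 0.349.

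In 2 probe sets all CAAM mice lay on opposite sides of the DW median in liver and BAT. Fabp4 by 1417023_a_at had standardised differences of 0.86 in liver and -1.08 in BAT, and Fabp6 of -1.26 in liver and 2.01 in BAT. The Fabp4 difference in BAT was -1.37e-07 ± 5.18e-07 (SE), in a score that hardly varied, and Fabp6 was below every array median in both tissues. By limma the difference between tissues did not pass in any member, with a lowest adjusted p of 0.724. The cause was not tested.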

How the results depend on the processing

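With mice left out in turn, 2 to 5 members were called by rank products in liver (2 without CAAM mouse 2 or mouse 5), 1 to 1 in WAT and 2 to 4 in BAT (2 without CAAM mouse 7, 4 without CAAM mouse 2), against 5, 1 and 3 with all mice, and 0 to 0 by limma in every tissue and between tissues. Over all probe sets, rank products with a mouse left out called 916 to 1163 in liver, 892 to 1278 in WAT and 1125 to 1582 in BAT. Quantile normalization gave 3 calls in liver, 2 in WAT and 1 in BAT, beside 990, 541 and 490 of all probe sets. The linear scale gave 3 in WAT and 5 in BAT, beside 1256 and 1519 of all. Bright probe sets only gave 3 in liver, beside 656 of the 22518 tested. Differences divided by the SD gave 0 in liver, 0 in WAT and 0 in BAT, and the sum of ranks 1 in liver, 0 in WAT and 1 in BAT. Over all probe sets these rankings called 302, 138 and 305 (divided by the SD) and 118, 100 and 88 (sum of ranks) in liver, WAT and BAT, against 1216, 1186 and 1428, and on the linear scale liver had 569 higher and 695 lower. A limma fit of all arrays together, whose spread is shared by the tissues, called 2 members in liver, both probe sets of Fabp5 (adjusted p = 0.0124 and 0.0181), and 161 higher and 238 lower probe sets in liver, 152 and 191 in WAT and 120 and 43 in BAT, against 0. That fit counts the arrays of a mouse as independent and understates the error of a more variable tissue, so its Fabp5 calls are not read as a result. Added after seeing the data, leaving out the 3 WAT arrays with a high epididymis score gave 0 calls in WAT and the 4 BAT arrays with a high muscle score 1 in BAT. Of all probe sets, 661 and 802 were called by rank products in these settings.

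Equal mouse numbers did not pair the samples (correlations of -0.196 to 0.155 over 15 pairs, 1 of them the best for its mouse). With the replicate block, which pairs different mice by equal number, rank products called 4 members in liver, 1 in WAT and 2 in BAT. Of all probe sets it called 1313, 842 and 1166. The members above 0 in the tissue differences numbered 4, 5 and 3 for liver minus WAT, liver minus BAT and BAT minus WAT under every setting run, also with no replicate block, except ranks within the array, which gave 4, 4 and 4. The bright-only setting was not run for them.

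Signs of the smallest differences turned. In liver, Fabp1 by 1417556_at was -0.000108 with centring. By 1448764_a_at it was -0.000100 with centring, -1.16e-05 with the replicate block, -4.23e-08 with array weights and -6.07e-06 to 1.84e-05 with mice left out. Fabp4 by 1425809_at was -2.33e-05 with quantile normalization and -0.000105 with centring. With quantile normalization the differences of Fabp1 by 1417556_at (-2.95e-15) and Fabp2 (-9.98e-16) vanished up to rounding error, so their signs are not read. Centring shifted all probe sets alike, and moved their median difference to -0.000108 in liver, 0.000317 in WAT and 0.000373 in BAT, against -6.12e-07, 1.17e-07 and -5.77e-08, so a sign that turned with it follows from that shift. In WAT, Fabp3 by 1444844_at was -6.34e-07 without the epididymis-high arrays and -7.77e-07 to 1.54e-06 with mice left out. Fabp4 by 1417023_a_at was -3.80e-08 with the replicate block and -2.96e-08 to 8.54e-08 with mice left out. With quantile normalization and centring, Fabp4 was 0.00205 and 0.000235 by 1424155_at, 0.00168 and 0.000109 by 1425809_at, and 0.00500 and 0.000312 by 1451263_a_at, and with mice left out -0.000211 to 4.93e-05 by the first and -0.000430 to 1.74e-05 by the second. In BAT the same settings gave 0.000440 and 0.000301 for Fabp3 by 1444844_at, 0.00332 and 0.000373 for Fabp4 by 1417023_a_at, and 0.00229 and 0.000364 by 1451263_a_at. Without the muscle-high arrays, Fabp3 by 1444844_at was 4.41e-06 and Fabp5 -0.000330 and -0.00102, and with mice left out Fabp5 was -0.000320 to 0.000785 and -0.000631 to 0.00234. Fabp4 by 1425809_at in BAT was -0.00317 to 0.000872 with mice left out, and with the replicate block it was called higher in place of lower (false positive shares of 0.0276 for higher and 0.298 for lower). The cause was not tested. Other single values numbered 217 within the spread or the same call, 12 moved (levels from the mean of a gene's probe sets), 2 that passed and 29 that no longer passed.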

Other observations

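In BAT all 5 glia and Schwann cell markers had a lower mean in CAAM mice, with list scores of -0.583 to -0.203 in CAAM mice and -0.380 to 1.46 in DW mice, and in liver and WAT all 5 did as well. Keratinocyte markers, which bear on Fabp5 as the epidermal member, had a lower mean in CAAM mice for 5 of 5 genes in liver, 1 of 5 in WAT and 5 of 5 in BAT. Brown adipocyte markers had a lower mean in CAAM mice for 7 of 7 genes in liver, 2 of 7 in WAT and 3 of 7 in BAT. Fabp12, which lies next to Fabp4 on chromosome 3, scored 7.07 in WAT, 6.64 in BAT and 6.60 in liver, with standardised differences of -0.337 in WAT, -0.185 in BAT and -0.589 in liver. The part of these cells in the results was not tested.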
